A study of Mus musculus with 20 samples.

Results

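The genes of the interleukin 6 (IL-6) and gp130 cytokine family were followed in the knee joints of mice with surgically induced osteoarthritis. They were taken by symbol, and all 9 genes sought were found among the 14793 genes of the table. There were 3 ligands (Il6, Lif and Osm), 5 receptor chains (Il6ra, Il6st, Lifr, Osmr and Il11ra1) and Socs3, a feedback inhibitor. The comparisons ask whether these genes differed in the joint according to the stromal cells that had been injected.

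Bulk RNA sequencing was performed on 20 joints, 5 different mice in each of 4 groups. All were male C57BL/6Nci mice, 12 weeks of age, and all had destabilization of the medial meniscus (DMM) of the right knee, a surgical model of osteoarthritis, so that no joint without surgery is among them. Control joints had a needle inserted and no cells, and the paper names no fluid for them. The other joints were injected in weeks 3 and 5 after surgery with mesenchymal stromal cells (MSC) grown from the adipose tissue of mice of the same strain and pooled. These were suspended in phosphate buffered saline, so that against control joints the cells and the injected fluid cannot be told apart. The cells were either not activated (MSC), or activated for 2 h at a dose of 10 µg/mL. The agonist was polyinosinic-polycytidylic acid, which TLR3 senses (TLR3-MSC), or 2′3′-cGAMP, which STING senses (STING-MSC). Cartilage, synovium, joint capsule and subchondral bone were extracted as 1 sample per joint. The study's methods place collection 8 weeks after surgery, whereas its results place it a day after injection.

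Cytokines of this family act through receptors that share gp130, the signaling chain encoded by Il6st. A ligand-specific chain (the IL-6 receptor, the LIF receptor, the oncostatin M receptor or the IL-11 receptor) joins gp130, and the complex activates JAK kinases and the transcription factor STAT3. STAT3 induces Socs3, whose protein binds gp130 and ends the signal. In joints the family is known for its part in synovial inflammation, in the acute-phase response and in the turnover of bone, and IL-6 can also act on cells without its own receptor by way of a receptor shed from other cells.

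Each joint had from 27955496 to 52529972 reads on the analysed genes. In bulk tissue, fewer cells of a type and less RNA per cell cannot be told apart. Markers of synovial fibroblasts, chondrocytes, osteoblasts, macrophages and neutrophils were above 0 in every joint. Skeletal muscle markers (summed normalized counts of 696000 to 2993000) and erythroid markers (823000 to 1752000) were abundant as well. Epidermal keratins, summed over 4 genes, stood apart in control replicate 1 (4615) and TLR3-MSC replicate 4 (17925), against 19.2 to 833 in the other joints.

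The sequence before the start of a gene is shown for Osm and Il6ra because they had the smallest p among the ligands and the receptor chains. It comprises the 250 bases before the outermost annotated start in GRCm39, for Osm chr11:4186170-4186419 on the plus strand and for Il6ra chr3:89820720-89820969 on the minus strand.
Osm: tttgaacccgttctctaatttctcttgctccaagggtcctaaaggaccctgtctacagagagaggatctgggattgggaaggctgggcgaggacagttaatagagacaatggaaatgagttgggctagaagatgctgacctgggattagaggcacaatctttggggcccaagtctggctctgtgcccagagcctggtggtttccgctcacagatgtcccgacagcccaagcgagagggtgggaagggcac
Il6ra: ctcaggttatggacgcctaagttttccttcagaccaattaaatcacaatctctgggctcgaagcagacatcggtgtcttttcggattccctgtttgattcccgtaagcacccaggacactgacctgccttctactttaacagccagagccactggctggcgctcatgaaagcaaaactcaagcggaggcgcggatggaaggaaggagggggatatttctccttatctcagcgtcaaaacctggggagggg
The motif TTCNNNGAA, which STAT proteins are known to bind and which reads the same on both strands, is in neither. Among the 9 genes it was in the window of Lifr alone, 155 to 163 bases before the start, and 7.82% of 21770 protein-coding genes had a match in such a window.

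For Socs3 the answer depended on the start that was used. With the start in RefSeq, which lies inside the annotated gene, the motif was 146 to 154 bases upstream, at chr11:117860338-117860346 (GRCm39, minus strand). It is in capitals below with 10 bases on each side.
Socs3: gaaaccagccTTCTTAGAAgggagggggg
These bases lie inside the annotated Socs3 gene, downstream of its outermost start at 117860898. The RefSeq table (GRCm38.p6) held 10 windows for 8 of the 9 genes, of which 1 matched, and 7.02% of all 32851 windows matched. This second search was added after the first had found no match for Socs3. A match describes letters and does not show that STAT3 was bound.

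Per kilobase of exon, Il6st was the most abundant of the 9 genes, with a median of 544 normalized counts per kb over the 20 joints. It was followed by Il6ra (326), Socs3 (267), Il11ra1 (261), Lifr (176), Osm (92.4), Osmr (60.6), Lif (11.2) and Il6 (5.75). The shared chain was therefore above every ligand and every ligand-specific chain in these medians. Only between Osmr and Lif did the ranges of neighbors not overlap. Il6st was above Il6ra in 20 of 20 joints, whereas Socs3 was above Il11ra1 in 10 of 20.

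**Figure D1:**
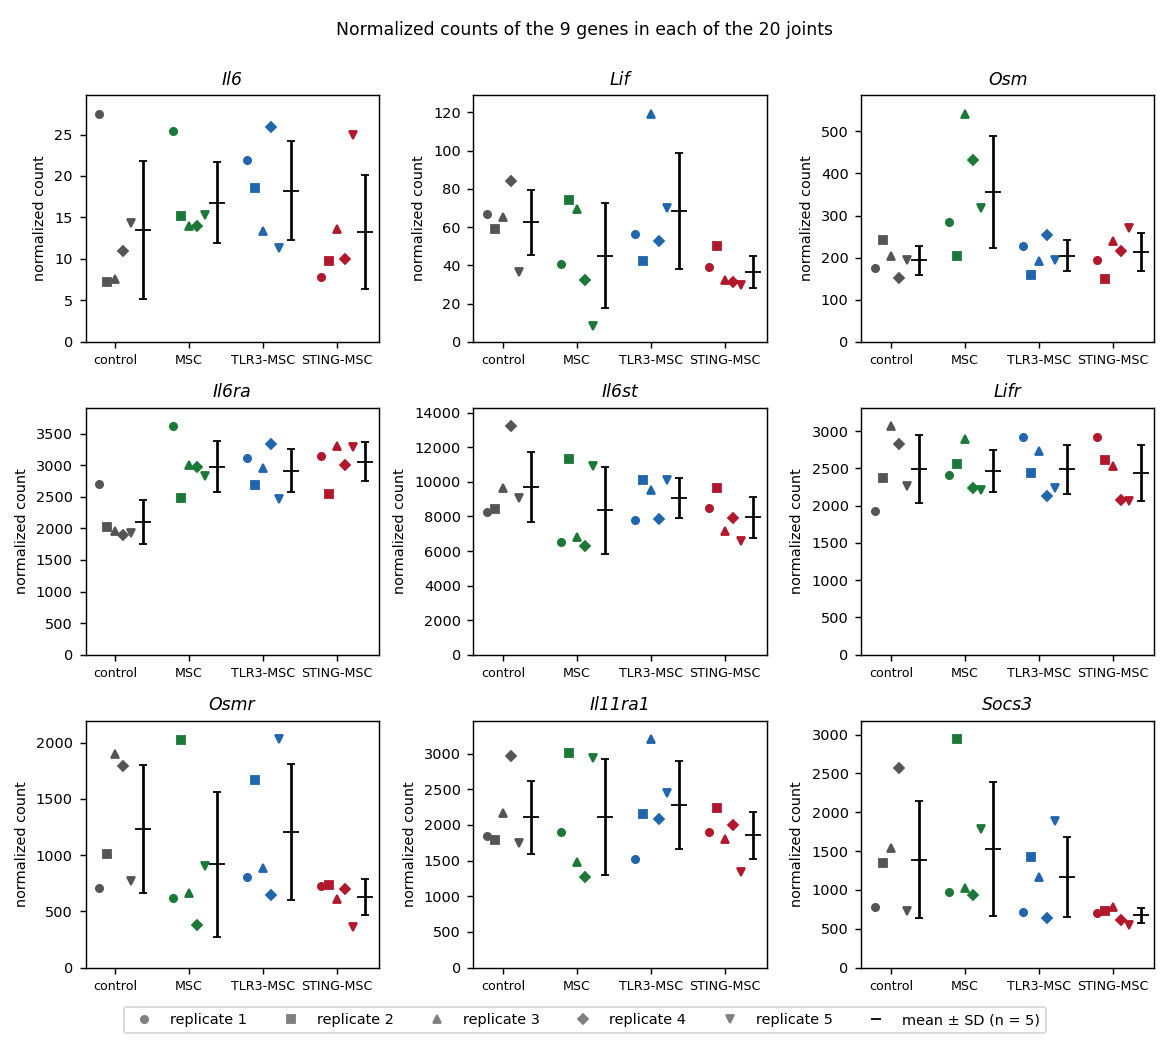
Normalized counts (y axis, linear from 0, one panel a gene) of the 9 genes in each joint by group (x axis), with the mean and SD of 5 joints beside the points and the replicate number as the marker shape. Il6ra was higher in most joints given cells than in control joints, Osm was highest in MSC joints, and Socs3 and Osmr were low and close together in STING-MSC joints.

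Groups were compared in limma after log2(normalized count + 1) was taken, with all 20 joints in 1 fit, and false discovery rates (FDR) were computed over the 14793 genes. Fold changes on this scale understate the change of genes with low counts. The 3 comparisons with control joints share those joints, and the comparisons with MSC joints share those. No gene of the family passed an FDR of 0.05 in limma (0 of 54 values over the 6 comparisons). On reads recovered from the deposited values, edgeR called 0 and DESeq2 called 3, of which 2 were for MSC and 1 for STING-MSC against control. In these comparisons DESeq2 called 0.827% and 0.576% of all genes given an FDR, and edgeR 0.101% and 0%. Across all genes, limma called 0.00676% for MSC against control, and 0% in the other comparisons and in the F test. At an unadjusted p of at most 0.05 there were 9 of 54. Compared with control joints these were 2 of 9 genes for MSC (8.55% of all genes), 1 of 9 for TLR3-MSC (3.58% of all genes) and 3 of 9 for STING-MSC (12.2% of all genes). Compared with MSC joints they were 1 of 9 for TLR3-MSC (3.88% of all genes) and 2 of 9 for STING-MSC (4.94% of all genes), and between STING-MSC and TLR3-MSC joints 0 of 9 (2.57% of all genes). Over the 4 groups together, the F test gave an unadjusted p of at most 0.05 for 3 of 9 genes (6.42% of all genes), namely Il6ra (FDR = 0.298), Osm (FDR = 0.585) and Socs3 (FDR = 0.771, limma).

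**Figure D2:**
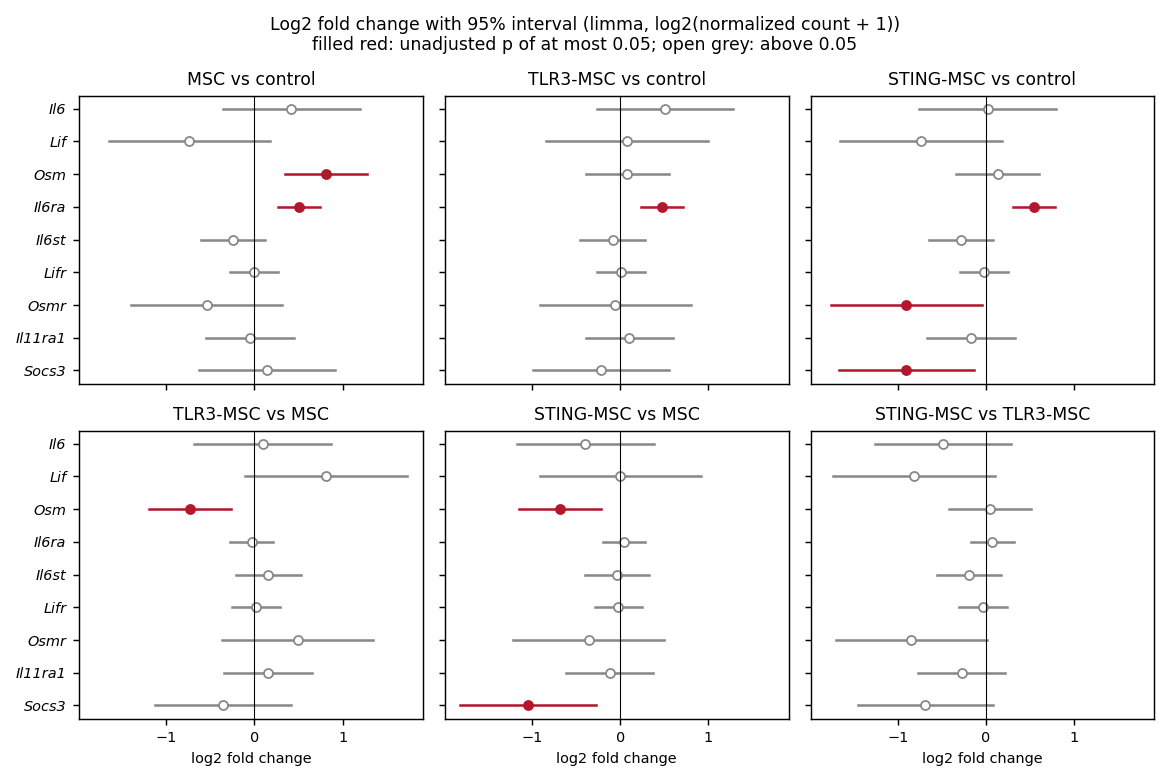
Log2 fold change (x axis) with its 95% interval from limma for the 9 genes (y axis) in the 6 comparisons between groups. The 9 filled red points have an unadjusted p of at most 0.05, 3 of them for Il6ra against control and 3 for Osm in MSC joints against each other group.

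Osm, which encodes oncostatin M, a ligand made mainly by myeloid cells, differed most between MSC joints and the rest. It lies on chromosome 11 (4186420 to 4191027), 16.5 kb from Lif (4207557 to 4222515). In control joints 1 to 5 its normalized count was 175, 242, 205, 152 and 195. In MSC joints it was 285, 204, 542, 431 and 319. In TLR3-MSC joints it was 228, 158, 193, 253 and 193, and in STING-MSC joints 194, 149, 239.8, 215 and 271. Thus 4 of 5 MSC joints were above every control joint, MSC replicate 2 lay within the control range, and the joints of the other 3 groups overlapped.

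The mean of Osm was 356 ± 132 (SD, n = 5) in MSC joints and 194 ± 33.8 (SD, n = 5) in control joints, a log2 fold change of 0.81 (95% interval 0.35 to 1.28, FDR = 0.254, limma). Osm was lower in TLR3-MSC than in MSC joints, with a log2 fold change of -0.73 (95% interval -1.20 to -0.27, FDR = 0.978, limma). It was also lower in STING-MSC than in MSC joints, with a log2 fold change of -0.68 (95% interval -1.15 to -0.22, FDR = 0.824, limma). Against control joints the log2 fold change was 0.08 for TLR3-MSC (95% interval -0.38 to 0.55) and 0.13 for STING-MSC (95% interval -0.33 to 0.60). An exact two-sided permutation test of 5 against 5 joints, which has 252 splits and no p below 0.00794, gave p = 0.0238 for MSC against control, 0.0238 for TLR3-MSC against MSC and 0.0476 for STING-MSC against MSC.

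Neutrophil markers were higher along with Osm in MSC against control joints, and they were also higher in STING-MSC joints, where the log2 fold change of Osm was 0.13. All 9 markers of the list were analysed and none was at 0. Their summed normalized count was 337800 to 588600 in control, 481300 to 814200 in MSC, 436300 to 699500 in TLR3-MSC and 481200 to 730000 in STING-MSC joints, and 7 of 9 were higher in MSC, 2 of 9 in TLR3-MSC and 7 of 9 in STING-MSC than in control joints at an unadjusted p of at most 0.05. With their log2 sum as a term, added after the data were seen, the log2 fold change of Osm for MSC against control was 0.39 (standard error 0.23), smaller than without it and no longer at an unadjusted p of at most 0.05. With the same term, that for TLR3-MSC against MSC was -0.54 (standard error 0.20) and that for STING-MSC against MSC -0.66 (standard error 0.18), both still at such a p. Between MSC joints and those given activated cells, 0 of 9 neutrophil markers reached it.

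Lif, the leukemia inhibitory factor, is a ligand of the LIF receptor and gp130. Its normalized count in joints 1 to 5 was 66.7, 59.2, 65.3, 84.0 and 36.7 in control and 40.9, 74.1, 69.6, 32.1 and 8.14 in MSC joints. It was 56.5, 42.0, 119, 52.8 and 70.1 in TLR3-MSC and 39.3, 50.1, 32.3, 31.2 and 29.7 in STING-MSC joints. The STING-MSC joints were low and close together, but they overlapped with every other group, and MSC replicate 5, with 8 reads, was the lowest of all.

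For Lif in STING-MSC joints, limma gave a log2 fold change of -0.73 against control (95% interval -1.65 to 0.18, FDR = 0.509) and of -0.81 against TLR3-MSC (95% interval -1.73 to 0.11, FDR = 0.89). The exact permutation test gave p = 0.0238 and p = 0.0159 for the same pairs. Without MSC replicate 5, which enters the spread that limma shares among the groups, the standard error fell from 0.44 to 0.29 and both values reached an unadjusted p of at most 0.05 (FDR = 0.337 and FDR = 0.833, limma). For MSC against control the log2 fold change of -0.74 (FDR = 0.662) became -0.24 (FDR = 0.72) without MSC replicate 5, -0.99 (FDR = 0.27) without MSC replicate 2 and -0.97 (FDR = 0.795, limma) without MSC replicate 3.

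Il6 (chromosome 5, 30218112 to 30224980), the ligand that names the family, was close to the limit of detection. It had from 6 to 38 reads per joint, and its normalized count was 7.25 to 27.5 in control (median 11.0), 13.9 to 25.5 in MSC (median 15.2), 11.3 to 25.9 in TLR3-MSC (median 18.6) and 7.87 to 24.9 in STING-MSC joints (median 10.00). All 4 groups overlapped. The log2 fold change was 0.42 for MSC (95% interval -0.36 to 1.19), 0.51 for TLR3-MSC (95% interval -0.27 to 1.28) and 0.02 for STING-MSC (95% interval -0.75 to 0.80) against control, so that a change of more than 2-fold in TLR3-MSC joints is within the interval. Without control replicate 1, the highest control joint, the value for TLR3-MSC was 0.79 (standard error 0.35, FDR = 0.868, limma).

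Il6ra encodes the IL-6 receptor, the chain that binds IL-6 before gp130 (chromosome 3, 89771366 to 89820504). It was higher in all 3 groups given cells than in control joints. Its normalized count in joints 1 to 5 was 2709, 2018, 1965, 1891 and 1926 in control and 3613, 2480.2, 3008, 2965 and 2828 in MSC joints. It was 3113, 2689, 2956, 3329 and 2464 in TLR3-MSC and 3138, 2543, 3309.8, 3009.8 and 3288 in STING-MSC joints. Above every control joint were 4 of 5 MSC joints, 3 of 5 TLR3-MSC joints and 4 of 5 given STING-MSC, and only control replicate 1 reached into their range.

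The log2 fold change of Il6ra was 0.51 for MSC (95% interval 0.26 to 0.75, FDR = 0.135, limma). It was 0.48 for TLR3-MSC (95% interval 0.23 to 0.72, FDR = 0.96, limma) and 0.55 for STING-MSC (95% interval 0.31 to 0.79, FDR = 0.208, limma). The exact permutation p was 0.0159, 0.0238 and 0.0159. Between the groups given cells, the log2 fold changes of Il6ra lay between -0.03 and 0.07, and their 95% intervals lay between -0.27 and 0.31. Control replicate 1 had the most epidermal keratin RNA of the control joints. It also had their highest neutrophil marker sum (588612, against 337816 to 481775 in the others). Without it, Il6ra passed an FDR of 0.05 in 2 of the 3 comparisons with control. Over all genes, 26, 1 and 4 then passed for MSC, TLR3-MSC and STING-MSC. The log2 fold change of Il6ra was then 0.60 for MSC (FDR = 0.0314, limma), 0.57 for TLR3-MSC (FDR = 0.159, limma) and 0.64 for STING-MSC (FDR = 0.0421, limma). Without MSC replicate 2, that for MSC was 0.57 (FDR = 0.0454, limma), and Osm reached 0.99 (FDR = 0.0454, limma). In that fit 46 of all genes passed for MSC against control. With all 20 joints, DESeq2 gave Il6ra an FDR of 0.012 for MSC and of 0.0102 for STING-MSC.

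Il6ra followed the neutrophil markers across joints, as the scatter of Il6ra against their sum shows, and 7, 2 and 7 of the 9 were higher in MSC, TLR3-MSC and STING-MSC than in control joints at an unadjusted p of at most 0.05. With the neutrophil sum as a term, the log2 fold change of Il6ra was 0.22 for MSC (standard error 0.10), 0.32 for TLR3-MSC (standard error 0.08) and 0.28 for STING-MSC (standard error 0.10). All 3 are smaller than without the term, and all 3 stayed at an unadjusted p of at most 0.05. The 6 macrophage markers, another cell type that carries the receptor, reached that p in 0 of 6 cases in every comparison, with summed normalized counts of 24850 to 34750 in control and 22290 to 35500 in MSC joints, and none was at 0.

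**Figure D3:**
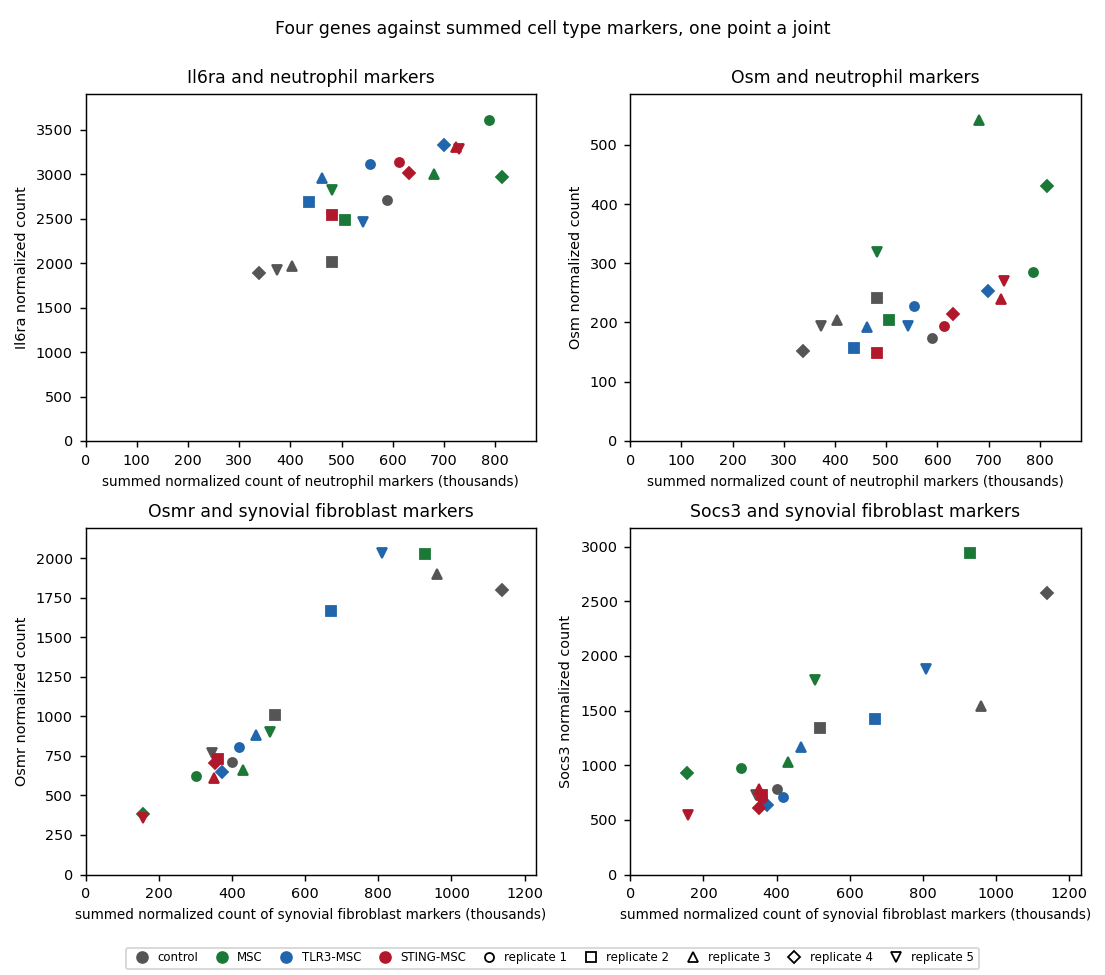
Normalized counts of Il6ra and Osm against the summed neutrophil markers, and of Osmr and Socs3 against the summed synovial fibroblast markers (both axes linear from 0, x axis in units of 1000), with 1 point a joint, colored by group and shaped by replicate. Osmr is higher where the fibroblast sum is higher, and the 5 STING-MSC joints sit at or below a sum of 361300.

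Il6st, which encodes gp130 (chromosome 13, 112600604 to 112646621), did not reach that p in any of the 6 comparisons. Its normalized count was 8236 to 13208 in control, 6293 to 11334 in MSC, 7782 to 10092 in TLR3-MSC and 6592 to 9625 in STING-MSC joints. The groups overlapped, and the largest difference was a log2 fold change of -0.28 in STING-MSC against control joints (95% interval -0.65 to 0.09).

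Lifr, the chain that LIF binds together with gp130 (chromosome 15, 7120095 to 7226971), was the steadiest of the 9 genes, with a coefficient of variation of 13.5% over the 20 joints. Its normalized count was 1931 to 3064 in control, 2205 to 2898 in MSC, 2130.5 to 2917 in TLR3-MSC and 2062 to 2924 in STING-MSC joints. Its log2 fold changes lay between -0.03 and 0.01, and their 95% intervals between -0.30 and 0.29.

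Il11ra1, the IL-11 receptor (chromosome 4, 41699989 to 41769475), varied within groups more than between them. Its normalized count was 1754 to 2969 in control, 1265 to 3005 in MSC, 1521 to 3201 in TLR3-MSC and 1346 to 2233.5 in STING-MSC joints. No comparison reached an unadjusted p of 0.05. As deposited, its span overlaps 6 other protein-coding genes, and the near copy Il11ra2 was not analysed here, so its reads are uncertain.

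Osmr encodes the oncostatin M receptor chain and lies on chromosome 15 (6843058 to 6904451), 216 kb from Lifr. Its normalized count in joints 1 to 5 was 710.3, 1009, 1896, 1796 and 769 in control and 622, 2026, 659.7, 381 and 899.8 in MSC joints. It was 805, 1664, 883, 646 and 2029.9 in TLR3-MSC and 729, 733, 610.0, 702 and 359 in STING-MSC joints. Each group except STING-MSC had 1 or 2 joints at 1664 or more, and 3 of 5 STING-MSC joints were below every control joint.

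The log2 fold change of Osmr in STING-MSC joints was -0.90 against control (95% interval -1.76 to -0.05, FDR = 0.388, limma, exact permutation p = 0.0238). Against TLR3-MSC joints it was -0.85 (95% interval -1.70 to 0.01, FDR = 0.89, limma, exact permutation p = 0.0397). The difference from control was no longer at an unadjusted p of at most 0.05 without control replicate 3 (log2 fold change -0.72), control replicate 4 (-0.74), STING-MSC replicate 3 (-0.90) or STING-MSC replicate 5 (-0.71). For MSC against control it was -0.54 (FDR = 0.713), with values between -0.89 (FDR = 0.248) without MSC replicate 2 and -0.29 (FDR = 0.893, limma) without MSC replicate 4. It was -0.36 (FDR = 0.857, limma) without control replicate 3.

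Osmr was higher in joints where the sum of the synovial fibroblast markers was higher. All 7 were analysed and none was at 0, and their summed normalized count was 344500 to 1139000 in control, 156100 to 928600 in MSC, 373700 to 809500 in TLR3-MSC and 157000 to 361300 in STING-MSC joints. In STING-MSC against control joints 1 of 7 was lower at that p (5.69% of all genes were lower), and the median log2 fold change of the 7 was -0.89. Of 5 endothelial markers, 4 were lower at that p, with a median of -0.53. The 6 chondrocyte and 5 osteoblast markers had medians of -0.62 and -0.32, with 0 lower at that p in either list. Control replicates 3 and 4, MSC replicate 2 and TLR3-MSC replicate 5 had the highest Osmr. They also had the highest chondrocyte sums (146519 to 201192) and osteoblast sums (30637.7 to 42002.7). In TLR3-MSC replicate 2, next in Osmr, these sums were 70662.4 and 20386.3. Neither sum was used as a term. With the fibroblast sum as a term, the log2 fold change of Osmr for STING-MSC against control was 0.03 (standard error 0.15), and with the neutrophil sum it was -0.04 (standard error 0.38). For MSC against control the same terms gave 0.03 (standard error 0.14) and 0.36 (standard error 0.39). After subtracting group means, the 5 genes of the whole table most like Osmr over the 20 joints were Lamb1 (Pearson r = 0.987), Lum (0.986), Ror2 (0.985), Col3a1 (0.985) and Col5a2 (0.981). Lum is one of the fibroblast markers.

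Socs3, the STAT3-induced inhibitor of gp130 signaling, lies on chromosome 11 (117856905 to 117860874). Its mean was lowest and its SD smallest in STING-MSC joints, whose range overlapped with that of TLR3-MSC joints. Its normalized count in joints 1 to 5 was 778, 1339.8, 1539, 2571 and 724 in control and 974, 2938, 1026, 929 and 1779 in MSC joints. It was 709.7, 1426, 1162, 637 and 1883 in TLR3-MSC and 700.2, 723, 778, 606 and 548 in STING-MSC joints. All 5 STING-MSC joints were below every MSC joint, a pattern of 0.548% of all genes, and 4 of 5 were below every control joint.

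The mean of Socs3 was 671 ± 92.7 (SD, n = 5) in STING-MSC joints and 1529 ± 862 (SD, n = 5) in MSC joints, a log2 fold change of -1.04 (95% interval -1.81 to -0.27, FDR = 0.852, limma). The exact permutation p was 0.00794, the smallest these groups can give. Against control joints (1390 ± 748, SD, n = 5), the log2 fold change in STING-MSC joints was -0.90 (95% interval -1.67 to -0.13, FDR = 0.369, limma, exact permutation p = 0.0159). Against TLR3-MSC joints it was -0.69 (95% interval -1.46 to 0.08, FDR = 0.89, limma, exact permutation p = 0.0794). The difference from MSC kept an unadjusted p of at most 0.05 with each of the 20 joints left out in turn (log2 fold changes of -1.18 to -0.77). That from control did not without control replicate 3 (-0.83), control replicate 4 (-0.64) or STING-MSC replicate 5 (-0.83).

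Immediate-early genes, which cells induce within minutes of stimulation or handling, were lower along with Socs3 in STING-MSC joints. The 8 immediate-early genes, none at 0, had a summed normalized count of 12110 to 22870 in control, 11450 to 24720 in MSC, 9184 to 16100 in TLR3-MSC and 8402 to 11810 in STING-MSC joints. In STING-MSC joints 4 of 8 were lower than in control and 6 of 8 lower than in MSC joints at an unadjusted p of at most 0.05. Of the 7 fibroblast markers, 0 were lower than in MSC joints at that p (median log2 fold change -0.27) and 1 was lower than in control joints (median -0.89). For STING-MSC against MSC, the log2 fold change of Socs3 was -0.75 with the fibroblast sum as a term (standard error 0.20), -1.07 with the neutrophil sum (standard error 0.29) and -0.11 with the immediate-early sum (standard error 0.24). For STING-MSC against control it was -0.15 with the fibroblast sum (standard error 0.22), -0.15 with the neutrophil sum (standard error 0.35) and 0.14 with the immediate-early sum (standard error 0.25). For MSC against control, the log2 fold change of Socs3 was 0.14 without a term, 0.61 with the fibroblast sum (FDR = 0.378, limma), 0.92 with the neutrophil sum (FDR = 0.427, limma) and 0.25 with the immediate-early sum (FDR = 0.689, limma). For TLR3-MSC against MSC, the log2 fold change of Socs3 was -0.36 without a term. It was -0.67 with the fibroblast sum (standard error 0.20) and -0.72 with the neutrophil sum (standard error 0.30). The immediate-early sum gave 0.12 (standard error 0.21). For STING-MSC against TLR3-MSC, the same sums gave -0.08 (standard error 0.21), -0.36 (standard error 0.30) and -0.23 (standard error 0.21). The part of these markers in the result was not tested beyond these terms.

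**Figure D4:**
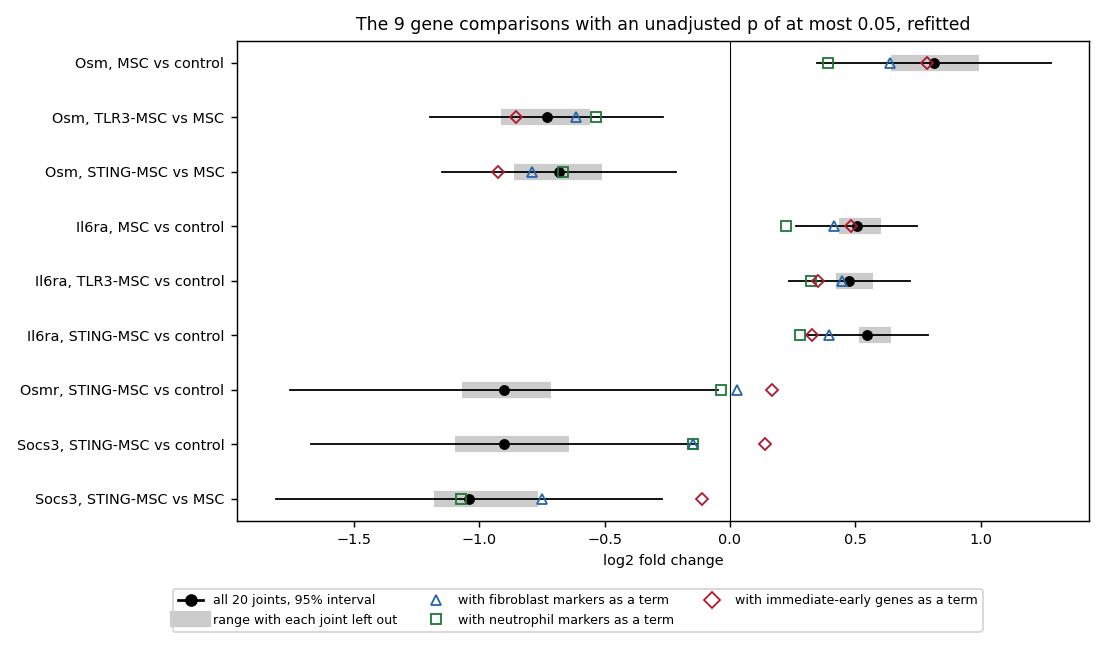
Log2 fold changes (x axis) of the 9 gene comparisons with an unadjusted p of at most 0.05 (y axis): black points with 95% intervals from all 20 joints, grey bars for the range with each joint left out in turn, and open symbols with a marker sum as a term. No grey bar reaches 0, whereas Osmr and Socs3 in STING-MSC against control move close to 0 or past it with each marker term.

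Across joints after subtracting group means, Socs3 was most like Pigk (r = 0.956), Igf2r (0.955), Neo1 (0.952), Inhba (0.952) and Npas2 (0.952). Within the family it was closest to Osmr (r = 0.894), Il6st (0.828) and Il11ra1 (0.738), in places 307, 962 and 1844 among all genes. Osm was most like Zfp871 (0.884), Zfp597 (0.88), Ccno (0.878), Plagl2 (0.864) and Btg2 (0.861), and Il6 was most like Akap12 (0.832), Rasal1 (0.803), Xrcc3 (0.787), Mbp (0.787) and Ddx10 (0.781). All these points share the 20 libraries and their mix of tissues. Of the 3 ligands, none was higher where Socs3 was higher beyond its spread. Pearson r with Socs3 was -0.525 for Il6 (permutation p = 0.0177, adjusted over 3 relations 0.0266) and -0.571 for Osm (permutation p = 0.00811, adjusted 0.0243), and 0.187 for Lif (permutation p = 0.438). Spearman's rho was -0.475 for Il6 (permutation p = 0.0352, adjusted 0.0528), -0.477 for Osm (permutation p = 0.0348, adjusted 0.0528) and 0.293 for Lif (permutation p = 0.209). Without the 2 joints farthest from the median of the ligand, r was -0.474, -0.428 and 0.267. Among the 14793 genes, ordered from the highest r with Socs3, Il6 was in place 11414 and Osm in place 11799. Many other genes thus had an r that was lower still, so these p-values do not show a relation particular to the family.

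Of 64 other genes of the pathway, 60 were analysed, and Cntf, Ctf2, Il11ra2 and Il31 were not analysed here. The pathway lists were chosen with earlier results of these data known. None of the 60 passed an FDR of 0.05 in limma (0 in each comparison). At an unadjusted p of at most 0.05, 12 were higher and 0 lower in MSC than in control joints (5.64% and 2.91% of all genes), 3 higher and 1 lower in TLR3-MSC (2.68% and 0.906%), and 11 higher and 5 lower in STING-MSC (6.54% and 5.69%). Compared with MSC joints, 0 were higher and 8 lower in TLR3-MSC (1.89% and 1.99% of all genes), and 2 higher and 9 lower in STING-MSC (2.77% and 2.17%). Between STING-MSC and TLR3-MSC joints there were 0 higher and 0 lower (0.784% and 1.78% of all genes).

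At an unadjusted p of at most 0.05, genes known to be induced through STAT3 were 9 of the 12 pathway genes higher in MSC than in control joints and 7 of the 16 that differed between STING-MSC and control joints. This list was chosen with earlier results of these data known, so its counts and medians are not independent support. Of all 23 on the list, 9 were higher and 0 lower at that p in MSC than in control joints (5.64% and 2.91% of all genes). For TLR3-MSC 2 were higher and 1 lower (2.68% and 0.906%), and for STING-MSC 4 higher and 3 lower (6.54% and 5.69%). Compared with MSC joints, 6 were lower in TLR3-MSC (1.99% of all genes) and 7 lower in STING-MSC joints (2.17%), and 0 were higher in either (1.89% and 2.77%). The median log2 fold change of the 23 against control was 0.16, 0.09 and 0.09 for MSC, TLR3-MSC and STING-MSC, beside -0.04, -0.0068 and 0.0078 over all genes. Against MSC it was -0.15 for TLR3-MSC and -0.28 for STING-MSC, beside 0.03 and 0.02 over all genes.

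Neutrophil markers and immediate-early genes moved with the list in different comparisons. In MSC against control joints, 7 of 9 neutrophil markers and 1 of 8 immediate-early genes were higher at that p (5.64% of all genes). Against MSC joints, 0 of 9 neutrophil markers reached it, while 2 of 8 immediate-early genes were lower in TLR3-MSC and 6 of 8 lower in STING-MSC joints (1.99% and 2.17% of all genes). Lcn2, Hp, Chil1 and Lrg1, which neutrophils also make, were 4 of the 9 genes higher in MSC joints, and their log2 fold changes for STING-MSC against MSC lay between -0.15 and -0.01. The part of these cells and genes in the list's values was not tested.

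Cebpd, a transcription factor of the acute-phase response, had a mean of 3115 ± 171 (SD, n = 5) in MSC joints and 1993 ± 320.2 (SD, n = 5) in control joints, a log2 fold change of 0.66 (FDR = 0.0647, limma), and no MSC joint overlapped with control, a pattern of 0.737% of all genes. For Cebpd the value against control was 0.31 in TLR3-MSC joints (FDR = 1.00) and 0.35 in STING-MSC joints (FDR = 0.336, limma). Mcl1, which protects cells from apoptosis, and Cebpb, another acute-phase transcription factor, were likewise higher in MSC joints, with log2 fold changes against control of 0.38 and 0.62 (limma, FDR = 0.0647 and 0.104). Cebpb had a mean of 2572 ± 696 (SD, n = 5) in MSC, 1436 ± 112.5 (SD, n = 5) in TLR3-MSC and 1494 ± 134 (SD, n = 5) in STING-MSC joints. Its log2 fold change against MSC was -0.80 for TLR3-MSC (FDR = 0.0878, limma) and -0.75 for STING-MSC (FDR = 0.189, limma). For Mcl1 it was -0.33 (FDR = 0.633, limma) and -0.40 (FDR = 0.189, limma).

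Hp, which encodes the acute-phase protein haptoglobin, was higher in each group given cells, with log2 fold changes of 0.59 for MSC (FDR = 0.183), 0.44 for TLR3-MSC (FDR = 1.00) and 0.56 for STING-MSC (FDR = 0.277, limma). Fos, an immediate-early gene on the same list, was -1.54 in STING-MSC against control (FDR = 0.274, limma) on the log2 scale, with a mean of 382 ± 149 (SD, n = 5) against 1091 ± 358 (SD, n = 5). Fos and Junb are in both the STAT3 list and the immediate-early list.

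**Figure D5:**
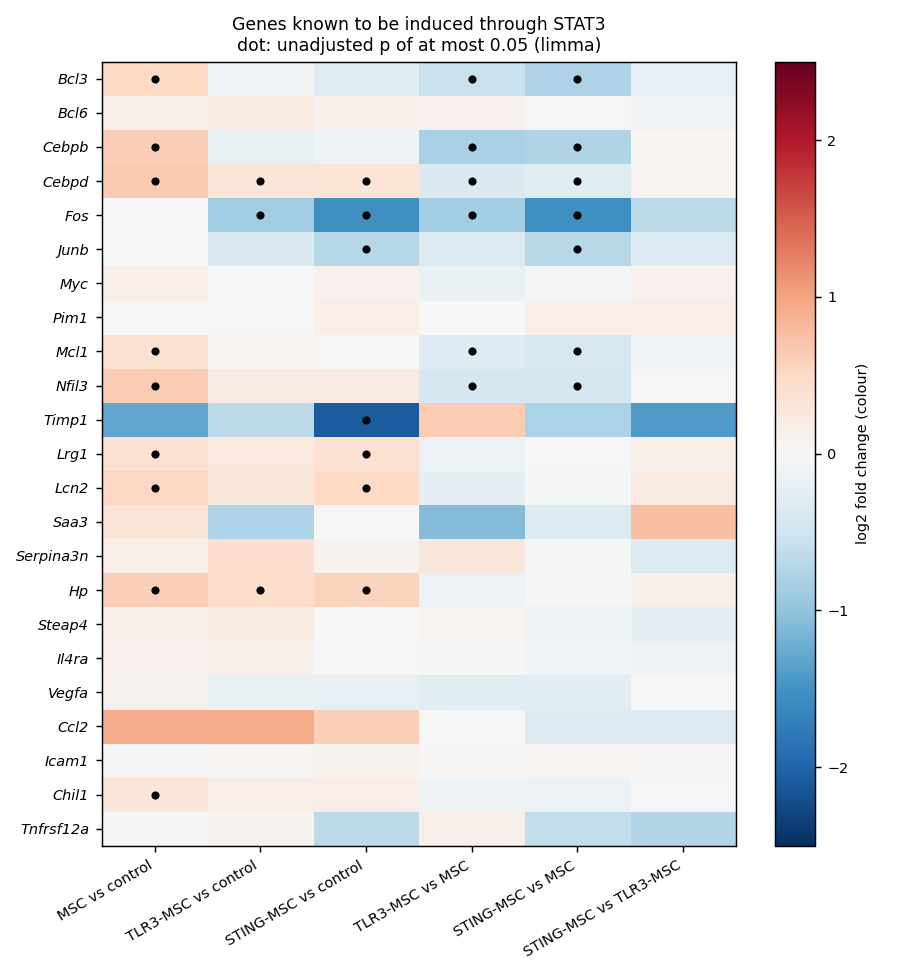
Log2 fold change (color) of 23 genes known to be induced through STAT3 (y axis) in the 6 comparisons (x axis), with a dot where the unadjusted p from limma is at most 0.05. Dots mark 9 higher genes in MSC against control and 6 and 7 lower genes in TLR3-MSC and STING-MSC against MSC. The genes were chosen with earlier results of these data known.

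Among the other ligands, 6 of 9 were analysed. Il11, the ligand of Il11ra1, was among the 2 pathway genes with the smallest p between STING-MSC and TLR3-MSC joints. Il11 had a normalized count of 4.17 to 22.1 in STING-MSC, 12.6 to 205 in TLR3-MSC, 3.30 to 91.8 in MSC and 11.6 to 129.7 in control joints, so that the groups overlapped. Its log2 fold change in STING-MSC joints was -1.98 against control (FDR = 0.374, limma) and -1.65 against TLR3-MSC (FDR = 0.89, limma). The 7 fibroblast markers had median log2 fold changes of -0.89 and -0.95 in the same comparisons, with 1 of 7 lower at an unadjusted p of at most 0.05 in each (5.69% and 1.78% of all genes), and their part in the Il11 values was not tested.

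Of the other lists, 0 of 4 other receptor chains reached that p in any comparison. Of 12 signal transducers, 0 had one for MSC or TLR3-MSC and 3 were higher for STING-MSC against control (6.54% of all genes were higher), among them Jak1, a kinase bound to gp130 (log2 fold change 0.15, FDR = 0.331, limma). Stat3 itself had log2 fold changes of 0.14, 0.13 and -0.0011 for MSC, TLR3-MSC and STING-MSC against control (standard error 0.12 each). Of 12 negative regulators, 2, 1 and 2 were higher at that p in the same comparisons (5.64%, 2.68% and 6.54% of all genes). Of 3 genes of receptor shedding, Rhbdf2, a partner of the sheddase Adam17, was higher for MSC (0.35, FDR = 0.329) and STING-MSC (0.25, FDR = 0.39, limma).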

How the data were processed

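RNA of 20 mouse knee joints was analysed, with groups and replicate numbers taken from the sample labels. The authors removed adapters and low-quality reads, aligned the rest to GRCm39 with STAR (version 2.7.3a), counted reads per gene with HT-seq on the Ensembl annotation, and stated that differential expression was run in DESeq2. What the authors deposited is a normalized signal, namely each joint's counts over its median-ratio size factor. Whether counting used strand is not given in the sources used here, and annotated genes that do not code for protein overlap Il6, Il6ra, Il6st, Lifr, Osmr and Socs3. In each joint, 99.83% to 99.92% of values were whole multiples of 1 read (within 0.1 of a read; 100% of those under 1000), and reads were recovered from them. The reads cover counting error only.

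The test was limma (version 3.58.1, R 4.3.3, trend option) on log2(normalized count + 1) over 20 joints and 4 groups, with FDR by Benjamini-Hochberg over 14793 genes. A minimum mean of 5 removed 0 genes. Single genes were also compared with an exact permutation test, and correlations used 100000 permutations. P-values measure the spread between mice. Same-numbered joints are different mice.

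The pseudocount was also set to 0.5 and to 5, and the minimum mean to 20 and to none. Other alternatives were only the 2 groups compared, quantile normalization, edgeR (version 4.0.16) and DESeq2 (version 1.42.0) on recovered reads, a block for the replicate number, and the omission of each joint in turn. Sums of marker genes as a term were added after the data were seen. The tests were also run on simulated data, in which every gene had the same dispersion (spread beyond counting error) and genes varied independently. They do not show how the tests perform where genes vary together, as in these joints.

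The 9 genes and the pathway and marker lists were chosen with earlier results of these data known. Named genes are the 9, 2 pathway genes per comparison by smallest p, and the 5 genes most like Il6, Osm, Osmr and Socs3. Cebpb in MSC against control, Lcn2, Chil1, Lrg1, Junb, Jak1, Stat3, Adam17 and Rhbdf2 were named after their values were seen. A gene that the rule names is not reported here.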

Additional observations from a re-analysis of the deposited data

Results flagged for a closer look

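In 3 of 36 groups of 5 joints, 1 joint stood apart from the other 4 beyond Dixon's critical value of 0.71 for the gap over the range, and chance flags about 1 in 20 groups. Il6 had a normalized count of 25.5 in MSC replicate 1, against 15.3 in the next MSC joint (ratio 0.884). Il6ra had 2709 in control replicate 1, against 2018 in the next control joint (ratio 0.845), and this joint also had more epidermal keratin RNA and a higher neutrophil marker sum than the other control joints. Il6st had 13208 in control replicate 4, against 9659 in the next control joint (ratio 0.714).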

How the results depend on the processing

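The 9 gene comparisons with an unadjusted p of at most 0.05 kept their sign in all 261 values under the alternatives other than the marker sums, and 254 stayed at or below that p. Of 1299 values for the other 45 comparisons, 75 changed sign, from log2 fold changes of at most 0.216 in size, and 28 reached an unadjusted p of at most 0.05. Between STING-MSC and TLR3-MSC joints the count of 0 genes became 3 with only these 2 groups in the fit. It was also 3 in edgeR and 3 in DESeq2. Each time these were Lif, Osmr and Socs3, all lower in STING-MSC joints. With quantile normalization the count was 1 (Osmr). The count over all genes in this comparison rose too, from 380 in limma with all joints. It was 1258 with only these 2 groups, 605 in edgeR, 676 in DESeq2 and 399 with quantile normalization. DESeq2 called 3 at an FDR of at most 0.05, namely Il6ra for MSC (FDR = 0.012) and STING-MSC (FDR = 0.0102) and Osm for MSC (FDR = 0.0266), all against control, where limma and edgeR called 0. With each joint left out in turn, against control the counts with MSC were 2 to 5, with TLR3-MSC 1 to 2 and with STING-MSC 1 to 4, against MSC 1 to 3 with TLR3-MSC and 2 to 2 with STING-MSC, 0 to 2 between STING-MSC and TLR3-MSC, 2 to 3 for the F test, and 0 to 2 at an FDR of at most 0.05. The joints behind these ranges include MSC replicate 2, without which there were 5 genes for MSC against control and 3 for TLR3-MSC against MSC, MSC replicate 3 (2 for TLR3-MSC against MSC), and control replicates 3 and 4 and STING-MSC replicate 5, without each of which there was 1 for STING-MSC against control. Over all genes, the counts at an unadjusted p of at most 0.05 moved too. Without MSC replicate 2 they were 2468 for MSC against control and 1477 for TLR3-MSC against MSC, beside 1265 and 574 with all joints. Without MSC replicate 3 there were 429 for TLR3-MSC against MSC. For STING-MSC against control the omissions named gave 1105, 868 and 1023, beside 1808 with all joints. With the fibroblast sum as a term there were 3 genes for MSC against control (Osm, Il6ra and Socs3), 1 for STING-MSC against control, 2 for TLR3-MSC against MSC and 1 for STING-MSC against TLR3-MSC. Over all genes there were 1355, 860, 727 and 137 in these comparisons. With the neutrophil sum there were 4 for MSC against control, 1 for STING-MSC against control and 2 for TLR3-MSC against MSC, and with the immediate-early sum 1, 4 and 1 for STING-MSC against control, TLR3-MSC against MSC and STING-MSC against TLR3-MSC. Over all genes these counts were 1724, 987 and 760 with the neutrophil sum, and 551, 2793 and 151 with the immediate-early sum. The log2 fold change of Osmr in STING-MSC against control reversed to 0.029 with the fibroblast sum and to 0.17 with the immediate-early sum, and that of Socs3 to 0.14 with the latter. That of Il6st in MSC against control reversed from -0.24 to 0.24 (FDR = 0.429, limma) and that of Il11ra1 from -0.05 to 0.49 (FDR = 0.427, limma) with the neutrophil sum. In the same comparison Osmr reversed from -0.54 to 0.36 with the neutrophil sum (FDR = 0.707, limma) and to 0.029 with the fibroblast sum (FDR = 0.959, limma). The cause was not tested. The replicate number does not pair the joints (correlations of same-numbered joints from -0.658 to 0.464), and with it as a block the counts were 2, 1 and 3 against control, 1 and 2 against MSC, 0 between STING-MSC and TLR3-MSC, 2 in the F test and 0 at an FDR of at most 0.05. Over all genes the block gave 1168, 473 and 1597 against control at an unadjusted p of at most 0.05. It gave 483 and 631 against MSC, and 291 between STING-MSC and TLR3-MSC. Few reads limit Il6 and Lif.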
